A study of Homo sapiens with 40 samples.

Results

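Homologous recombination copies a broken DNA stretch from an intact sister molecule, and the Fanconi pathway prepares crosslinked DNA and stalled forks for that repair. The 37 genes described here cover both, from the kinases that sense damage to the nucleases that resolve the joined molecules. They were chosen by name, with earlier results of these data known. A gene was measured by the probe set annotated to it alone, and where there were several, by the one with the highest mean over the 40 arrays. By this rule 33 of the 37 genes were measured among 18244 genes in all, and BRCA2, FANCA, FANCD2 and RBBP8 were not analysed here. BRIP1 and FANCM were dim, with every group mean below 4 on the log2 scale.

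The cells were AG01522 fibroblasts, 1 line of normal human skin fibroblasts, given X-rays as fully confluent cultures. The 13 groups were sham (4 arrays, cells under a lead mask, labelled as the baseline), a single 5 cGy, a single 2 Gy, and 5 cGy with 2 Gy given 12 h later (5 cGy + 2 Gy). The irradiated groups had 3 arrays for each time of collection, which was 3, 6, 12 or 24 h from the final dose. No sham array carried a later time, so against sham the dose and the time in culture cannot be told apart. The line carries no transgene or deletion that the labels name, and 1 line stands for all cultures. Levels are log2 intensities, changes are log2 differences with the standard error (SE) of the fit, and a gene was called where limma's adjusted p was under 0.05.

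In human cells ATM and ATR are the kinases that respond to breaks and to single-stranded DNA. The MRN complex (MRE11, RAD50, NBN) holds and trims the ends, EXO1, DNA2 and BLM lengthen the single strand, and BRCA1 with BARD1, PALB2 and BRCA2 prepares it for pairing with the intact copy. The Fanconi core complex and its E2 enzyme UBE2T attach ubiquitin to the FANCI and FANCD2 pair at blocked forks. Many of these genes are known to be transcribed mainly in cells that copy their DNA, whereas damage kinases act mainly through changes in their proteins.

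Some arrays stood apart before any comparison. Sham replicate 1 correlated with the other sham arrays at a mean of 0.982, against 0.989 to 0.990 for each of the others, and it held the highest sham value of 18 of the 33 members and the lowest of 6. ATM read 6.25 there against 4.67 to 5.04 on the other sham arrays, NBN 9.21 against 7.38 to 7.72, RAD50 7.36 against 6.21 to 6.68 and RAD51C 8.45 against 7.55 to 7.90, whereas RFWD3 read 6.67 against 7.19 to 7.33. Replicate 1 of 2 Gy at 24 h had a GAPDH 3′ minus 5′ difference of 1.05 on the log2 scale, against 0.26 and 0.27 on the other arrays of its group. Counts are therefore also given without sham replicate 1 and without that array. The arrays of 2 Gy at 3 h had GAPDH differences of 0.63, 0.68 and 0.38, against 0.28 to 0.40 on the sham arrays. Their ACTB 3′ minus 5′ differences were 3.21, 3.09 and 2.84, against 2.12 to 2.68 on the sham arrays. By ACTB the arrays of 5 cGy at 6 h also lay above sham (2.75 to 2.84). The comparison of 24 h with 3 h after 2 Gy rests on the whole group of 2 Gy at 3 h. By the percentile of the mean level among all genes, the 10 fibroblast markers sat between 77.7 and 100, the 4 melanocyte markers between 15.4 and 38.9 and the 5 endothelial markers between 26.1 and 49.3. The 5 leukocyte markers ran from 2.5 (LYZ) and 2.8 (PTPRC) to 72.3 (CD68), the 5 keratinocyte markers from 24.2 (KRT5) to 90.3 (KRT10), and the 5 smooth muscle and pericyte markers from 27.9 (RGS5) to 99.8 (ACTA2), with CNN1 at 92.5.

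**Figure D1:**
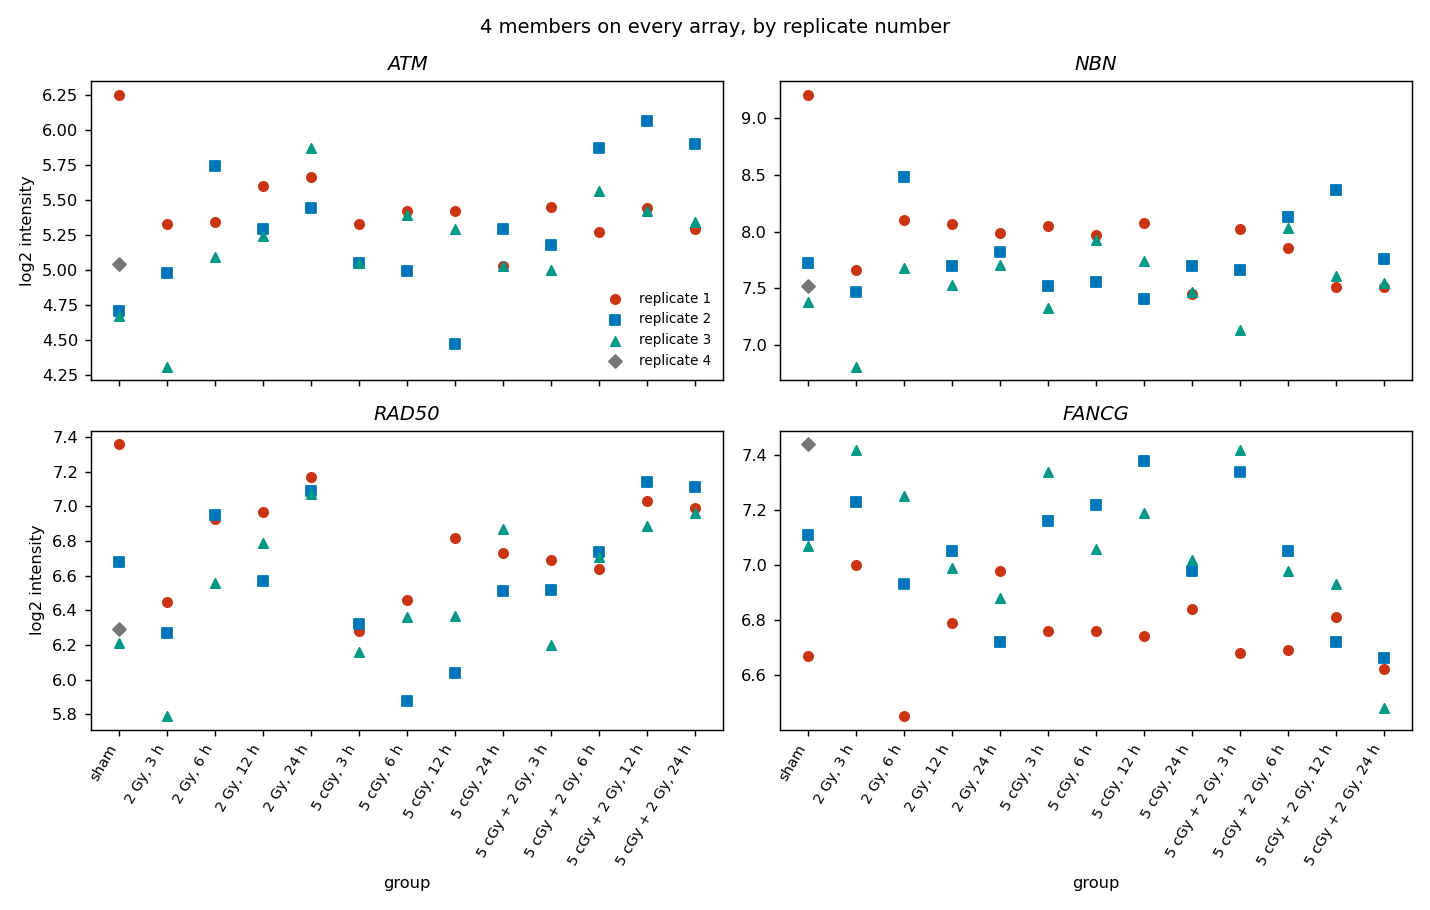
Levels of ATM, NBN, RAD50 and FANCG (log2 intensity, vertical axes) on each of the 40 arrays, by group (horizontal axis), with the marker giving the replicate number. Sham replicate 1 was the highest of the 4 sham arrays for ATM (6.25), NBN (9.21) and RAD50 (7.36), and the lowest for FANCG (6.67).

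At 24 h the members mostly sat below sham, and the ones that fell belonged to resection, to the BRCA1 pair, to the genes of the pairing step, to the ubiquitin steps and to the nuclease partner EME1. After 2 Gy 10 of the 33 fell and 1 rose (all genes: 2.25 percent down, 3.8 percent up), with a median change of -0.19 against 0.016 over all genes. After 5 cGy + 2 Gy 12 fell and 1 rose (all genes: 4.05 percent down, 5.86 percent up), with a median of -0.22. After 5 cGy alone 5 fell and 1 rose (all genes: 0.976 percent down, 2.13 percent up), with a median of -0.12. In a bulk culture, fewer cells that transcribe a gene and less RNA per cell cannot be told apart. These 3 comparisons share their sham arrays.

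Without sham replicate 1 the counts at 24 h were 3 down and 2 up after 5 cGy (all genes: 1.67 percent down, 2.97 percent up), 9 down and 4 up after 2 Gy (all genes: 3.49 and 6.64 percent), and 13 down and 4 up after 5 cGy + 2 Gy (all genes: 5.14 and 7.22 percent). The count after 2 Gy was 9 down and 1 up without replicate 1 of that group (all genes: 1.98 percent down, 2.42 percent up). It was 9 down and 4 up without both arrays (all genes: 3.19 and 4.31 percent). The count after 5 cGy was 2 in all when sham replicate 2 was left out, and 3 when replicate 2 or replicate 3 of its own group was left out, and the count after 2 Gy was 7 without replicate 2 or replicate 3 of that group.

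**Figure D2:**
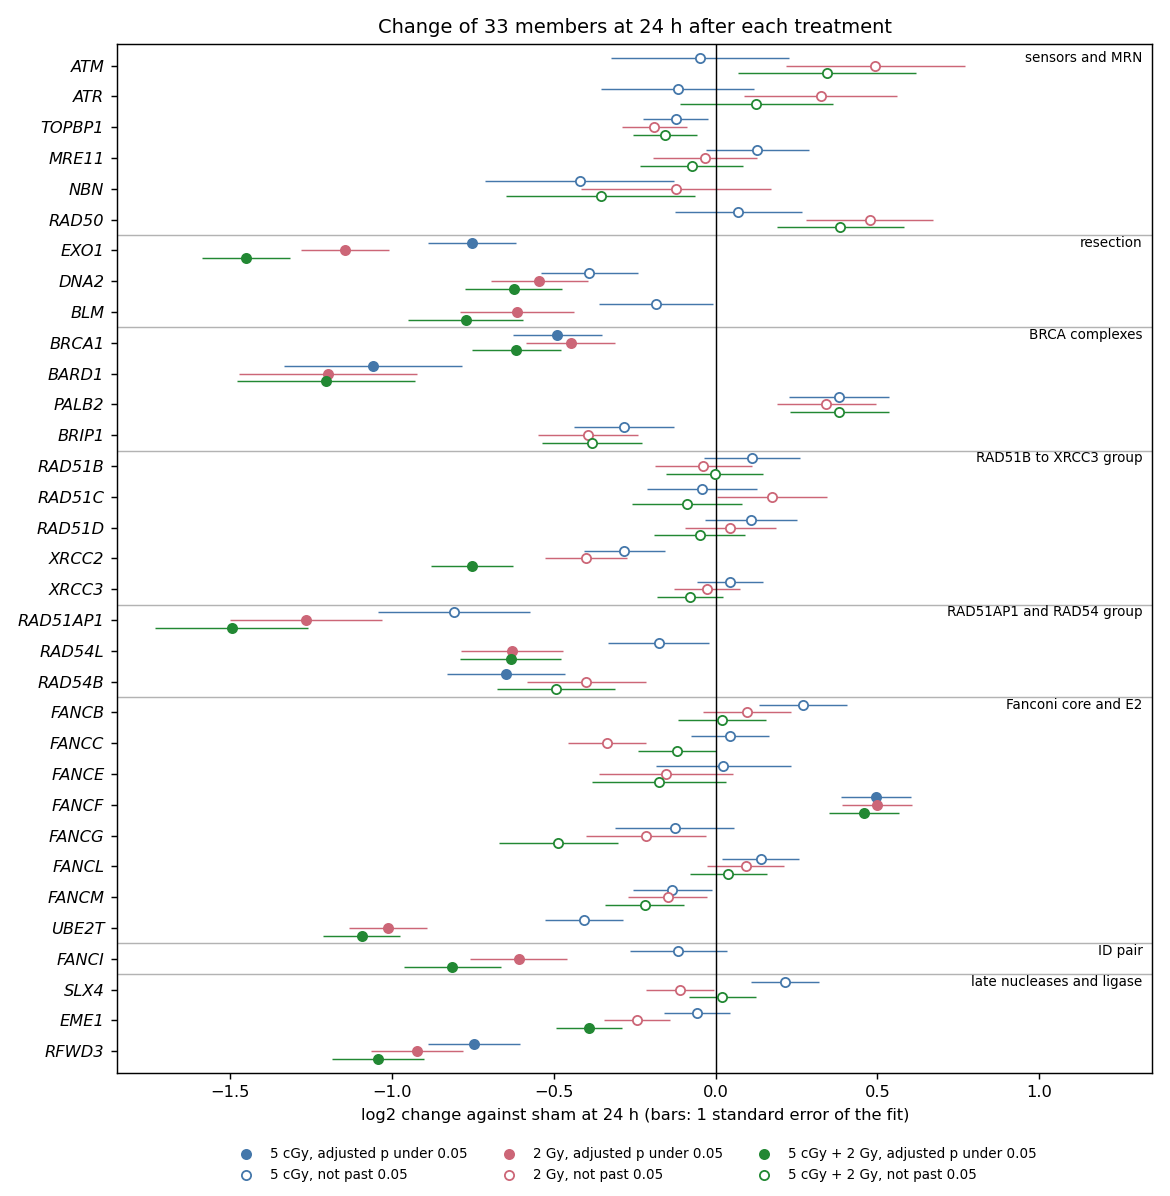
Change of each of the 33 measured members against sham at 24 h (log2, horizontal axis), ordered by role, after 5 cGy (blue), 2 Gy (red) and 5 cGy + 2 Gy (green). Points are fitted changes from 3 arrays against 4, bars are 1 SE, and filled points passed an adjusted p of 0.05. RAD51AP1, BARD1, EXO1, UBE2T and RFWD3 lie farthest to the left after 2 Gy, and FANCF was the 1 member called higher after each treatment in this fit of all 40 arrays.

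The promoters of the members that fell most at 24 h after 2 Gy are given with that of XRCC3, the member nearest to 0 in the same comparison (-0.03), as 250 bases before the RefSeq gene start (GRCh38.p14), 5′ to 3′ on the gene's strand. The regions are RAD51AP1 chr12:4538640-4538889 (plus strand), BARD1 chr2:214809684-214809933 (minus), EXO1 chr1:241847954-241848203 (plus), UBE2T chr1:202341937-202342186 (minus) and XRCC3 chr14:103715452-103715701 (minus). Capitals mark matches, on either strand, to letters of 3 motifs known from genes of the cell cycle, which do not overlap one another here. They are E2F sites (TTTGGCGC, TTTCCCGC, TTTCGCGC, TTTGCCGC or TTCCCGCC, the last of them added after the sequences were read), CHR elements (TTTGAA or TTCGAA) and the CCAAT box (CCAAT).
RAD51AP1: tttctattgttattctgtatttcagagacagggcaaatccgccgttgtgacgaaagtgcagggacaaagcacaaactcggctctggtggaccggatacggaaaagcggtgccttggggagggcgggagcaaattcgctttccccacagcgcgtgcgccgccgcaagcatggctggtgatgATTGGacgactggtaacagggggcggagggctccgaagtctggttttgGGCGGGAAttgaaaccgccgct
BARD1: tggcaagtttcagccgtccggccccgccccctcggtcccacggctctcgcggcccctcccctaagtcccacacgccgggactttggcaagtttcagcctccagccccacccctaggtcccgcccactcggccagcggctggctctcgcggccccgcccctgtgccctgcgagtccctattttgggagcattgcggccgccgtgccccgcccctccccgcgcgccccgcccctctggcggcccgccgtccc
EXO1: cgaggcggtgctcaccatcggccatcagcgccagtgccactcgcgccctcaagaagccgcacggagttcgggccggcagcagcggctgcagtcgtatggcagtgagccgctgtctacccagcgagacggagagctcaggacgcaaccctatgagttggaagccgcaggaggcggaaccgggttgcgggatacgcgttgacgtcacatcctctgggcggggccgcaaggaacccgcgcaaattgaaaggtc
UBE2T: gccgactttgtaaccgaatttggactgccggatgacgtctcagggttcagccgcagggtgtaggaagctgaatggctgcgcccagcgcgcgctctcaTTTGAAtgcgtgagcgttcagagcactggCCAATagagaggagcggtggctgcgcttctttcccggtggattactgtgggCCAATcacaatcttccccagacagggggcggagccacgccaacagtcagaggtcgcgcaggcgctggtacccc
XRCC3: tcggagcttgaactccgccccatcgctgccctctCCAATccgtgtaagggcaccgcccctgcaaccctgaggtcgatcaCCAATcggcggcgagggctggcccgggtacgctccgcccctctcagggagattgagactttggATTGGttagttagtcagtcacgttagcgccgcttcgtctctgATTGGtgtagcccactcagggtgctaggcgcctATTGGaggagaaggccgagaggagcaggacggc

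RAD51AP1 held an E2F match that begins 22 bases before its start and a CCAAT match at 70 bases. The E2F match is to TTCCCGCC, the letters added after the sequences were read. UBE2T held a CHR match at 153 bases and CCAAT matches at 124 and 73 bases. XRCC3, which was not called at 24 h against sham, held 5 CCAAT matches, and BARD1 and EXO1 held none of these letters. Of the 37 members 33 had a promoter in the table, and 6 of these (18.2%) held an E2F match, 4 (12.1%) a CHR match and 13 (39.4%) a CCAAT match. Of all 35116 promoters of the same length the shares were 4.76%, 14.3% and 32%. Both E2F shares include the added letters, which were chosen on promoters of members. Shares without these letters were not computed, so no conclusion is drawn from the E2F difference. Such matches describe letters and do not show binding.

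Before 24 h few members were called in the fit used here, which has no replicate block or array weights. With either of these, the counts at 12 h after 2 Gy and after 5 cGy + 2 Gy were higher, as given in the closing section. After 5 cGy limma called 0 of 33 at 3 h, 0 at 6 h and 0 at 12 h (0, 0 and 0.329 percent of all genes in either direction), with 2, 6 and 4 members at an unadjusted p under 0.05. Here and below, counts at an unadjusted p stand without the share of all genes at that p, which was not counted. After 2 Gy it called 0 at 3 h (all genes 0.132 percent in either direction, 5 members at an unadjusted p under 0.05), 1 lower at 6 h (all genes 0.0493 percent down) and 1 lower at 12 h (all genes 0.301 percent down). After 5 cGy + 2 Gy it called 0 at 3 h (all genes 0.132 percent, 4 members at an unadjusted p under 0.05), 1 lower at 6 h (all genes 0.148 percent down) and 3 lower at 12 h (all genes 0.597 percent down). The early calls were FANCL at 6 h and EXO1 at 12 h after 2 Gy, RFWD3 at 6 h after 5 cGy + 2 Gy, and EXO1, UBE2T and RFWD3 at 12 h after 5 cGy + 2 Gy. FANCL at 6 h after 2 Gy was lost without sham replicate 1, 3 or 4 or any array of its group, and EXO1 at 12 h after 2 Gy without replicate 2 of that group, while RFWD3 was called there without sham replicate 1 (-0.68 ± 0.13, adjusted p = 0.00479). The count at 6 h after 5 cGy + 2 Gy was 3 without sham replicate 1 and 0 without sham replicate 2 or 3 or replicate 1 or 2 of its group, and that at 12 h was 6 without sham replicate 1 and 1 without replicate 3 of its group.

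**Figure D3:**
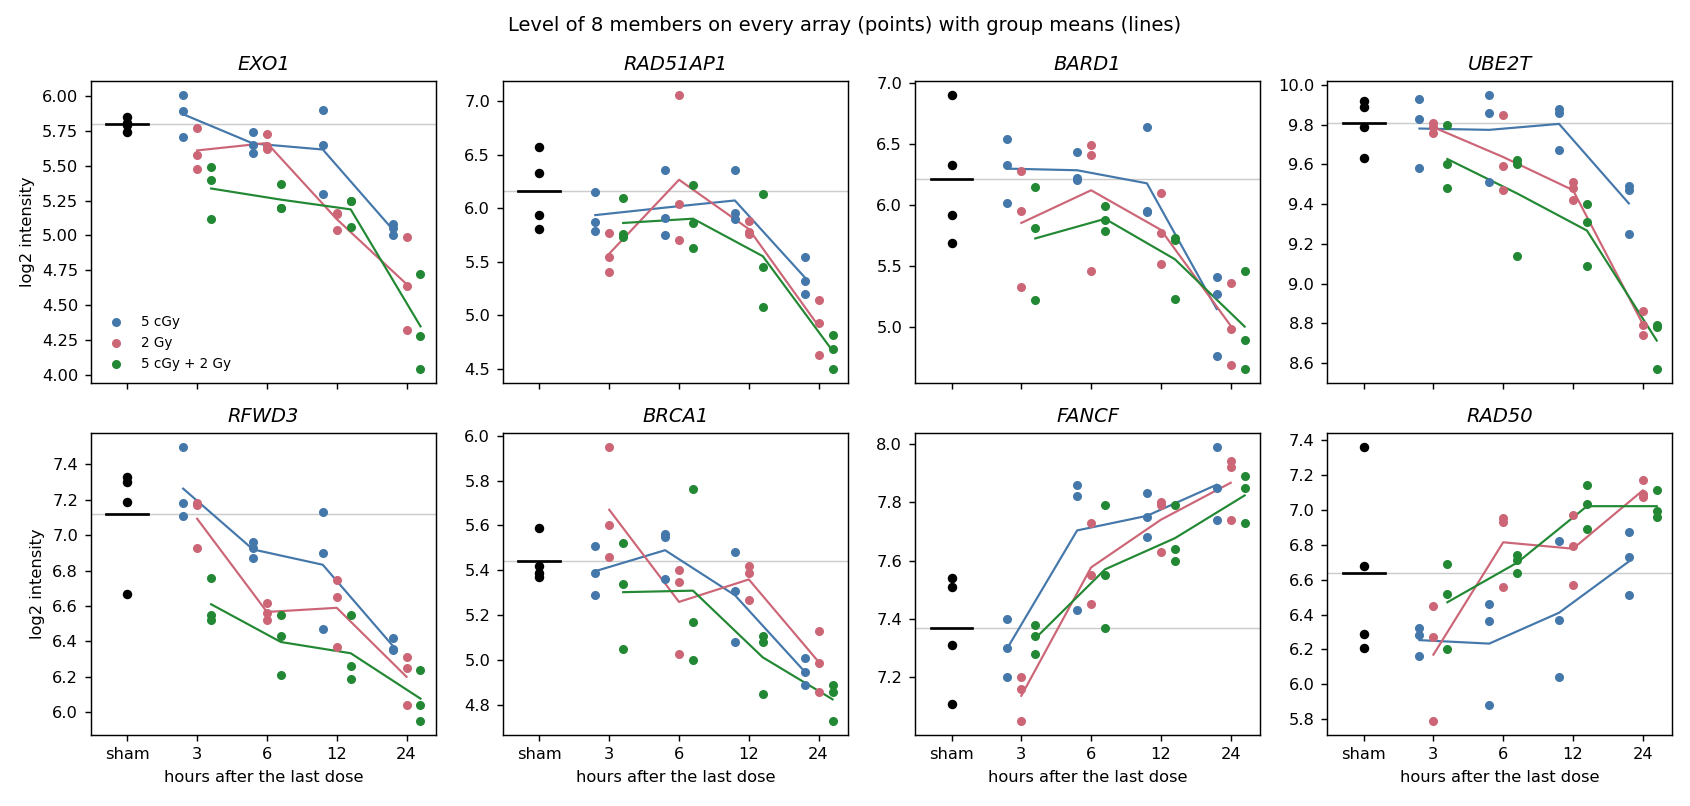
Level (log2 intensity, vertical axes) of 8 members on every array (points) with group means (lines) for sham (black, grey line at its mean) and, at each of the 4 times, after 5 cGy (blue), 2 Gy (red) and 5 cGy + 2 Gy (green), with times spaced evenly. EXO1, RAD51AP1, BARD1, UBE2T, RFWD3 and BRCA1 were lowest at 24 h after each treatment, and FANCF was highest there.

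Among the 6 sensors, 0 were called against sham at 24 h after any treatment. RAD50, the coiled subunit that tethers the ends in the MRN complex, read 7.36, 6.68, 6.21 and 6.29 in sham, 6.45, 6.27 and 5.79 at 3 h after 2 Gy and 7.17, 7.09 and 7.07 at 24 h. All 3 arrays at 24 h lay above all 3 at 3 h, while sham replicate 1 lay above them all. RAD50 rose by 0.94 ± 0.21 between 3 and 24 h after 2 Gy (adjusted p = 0.00367), and against sham its change at 24 h was 0.48 ± 0.20 (adjusted p = 0.16). Without sham replicate 1 that change was 0.72 ± 0.17 (adjusted p = 0.00648) after 2 Gy and 0.63 ± 0.17 (adjusted p = 0.0138) after 5 cGy + 2 Gy.

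The other sensors are ATM, ATR, TOPBP1 (which activates ATR), MRE11 (the MRN nuclease) and NBN (which recruits ATM), and none was called in the 25 comparisons made. Their group means spanned 4.87 to 5.66 for ATM, 4.30 to 5.20 for ATR, 7.18 to 7.42 for TOPBP1, 5.83 to 6.19 for MRE11 and 7.32 to 8.09 for NBN. ATM depended on the outlying sham array, with a change at 24 h after 2 Gy of 0.49 ± 0.28 (adjusted p = 0.348) with it and 0.85 ± 0.24 (adjusted p = 0.017) without it. After 5 cGy + 2 Gy the ATM change without that array was 0.71 ± 0.24 (adjusted p = 0.0452).

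All 3 measured resection genes fell at 24 h after 2 Gy and after 5 cGy + 2 Gy, and 1 of them after 5 cGy. EXO1, the exonuclease that extends the single strand, read 5.81, 5.79, 5.74 and 5.85 in sham. At 24 h it read 5.08, 5.05 and 5.00 after 5 cGy, 4.99, 4.64 and 4.32 after 2 Gy, and 4.28, 4.72 and 4.04 after 5 cGy + 2 Gy. No irradiated array at 24 h reached the narrow sham range, and the 5 cGy arrays lay above all of the others. The change was largest after 5 cGy + 2 Gy, at -1.45 ± 0.14 (2.73-fold lower, adjusted p = 4.42e-09). At 12 h it read 5.06, 5.25 and 5.25 after that treatment, 5.15, 5.04 and 5.16 after 2 Gy and 5.30, 5.90 and 5.65 after 5 cGy, so the arrays given 2 Gy were already apart from sham. EXO1 at 12 h fell by 0.61 ± 0.14 after 5 cGy + 2 Gy (adjusted p = 0.0141).

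BLM, the helicase that works with DNA2 in resection and dissolves crossed strands, read 4.31, 4.46, 4.07 and 4.33 in sham, 3.94, 3.48 and 3.63 at 24 h after 2 Gy and 3.41, 3.60 and 3.54 after 5 cGy + 2 Gy. Both irradiated groups lay below sham and overlapped each other, at low levels. BLM fell by 0.61 ± 0.18 (adjusted p = 0.0312) after 2 Gy and by 0.77 ± 0.18 (adjusted p = 0.00356) after 5 cGy + 2 Gy. DNA2, a nuclease and helicase, read 4.84, 4.60, 4.25 and 4.30 in sham, 3.91, 4.11 and 3.84 after 2 Gy and 3.90, 3.91 and 3.81 after 5 cGy + 2 Gy at 24 h. Its sham values were widely spread and still above each of those arrays. DNA2 fell by 0.54 ± 0.15 (adjusted p = 0.0233) and by 0.62 ± 0.15 (adjusted p = 0.00541). Without sham replicate 1 the DNA2 change after 2 Gy was -0.43 ± 0.15 (adjusted p = 0.0664), and without replicate 1 of 2 Gy at 24 h it was -0.52 ± 0.17 (adjusted p = 0.0835).

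In the BRCA group the paired ubiquitin ligase BRCA1 and BARD1 fell at 24 h after each treatment, and PALB2, which joins BRCA1 to BRCA2, did not. BRCA1 read 5.59, 5.39, 5.37 and 5.42 in sham and, at 24 h, 4.89, 5.01 and 4.95 after 5 cGy, 5.13, 4.86 and 4.99 after 2 Gy, and 4.73, 4.89 and 4.86 after 5 cGy + 2 Gy. All 9 irradiated arrays lay below all 4 sham arrays. BRCA1 fell by 0.49 ± 0.14 (adjusted p = 0.0417), 0.45 ± 0.14 (adjusted p = 0.0461) and 0.62 ± 0.14 (adjusted p = 0.00283). Without sham replicate 1 the first of these BRCA1 changes had an adjusted p of 0.0772 and the next 0.0799, and the BRCA1 change after 2 Gy had one of 0.0523 without replicate 1 of that group.

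BARD1 read 6.90, 6.33, 5.92 and 5.69 in sham, the widest spread among the members that fell after all 3 treatments. At 24 h it read 5.41, 5.27 and 4.77 after 5 cGy, 5.36, 4.69 and 4.99 after 2 Gy and 5.46, 4.90 and 4.66 after 5 cGy + 2 Gy, so the 3 irradiated groups covered one another and none reached sham. BARD1 fell by 1.2 ± 0.28 after 5 cGy + 2 Gy (adjusted p = 0.0035), and after 5 cGy its change without sham replicate 1 was -0.83 ± 0.27 (adjusted p = 0.0761).

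PALB2 read 7.49, 6.78, 6.85 and 6.88 in sham, 7.06, 6.90 and 6.53 at 3 h after 2 Gy and 7.32, 7.37 and 7.33 at 24 h. The 24 h arrays lay above those at 3 h, and sham replicate 1 alone lay above them. PALB2 rose by 0.51 ± 0.16 between 3 and 24 h after 2 Gy (adjusted p = 0.0401), a call lost when any of the 6 arrays except replicate 1 at 3 h was left out (adjusted p from 0.0687 to 0.229). Against sham at 24 h its change was 0.34 ± 0.15 after 2 Gy (adjusted p = 0.208) and 0.51 ± 0.14 without sham replicate 1 (adjusted p = 0.0197). Without that array PALB2 was also called higher at 24 h after 5 cGy (0.55 ± 0.14, adjusted p = 0.0227) and after 5 cGy + 2 Gy (0.55 ± 0.14, adjusted p = 0.00944). BRIP1, a helicase that binds BRCA1, was dim, with group means from 3.17 to 3.56, and was not called.

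Of RAD51B, RAD51C, RAD51D, XRCC2 and XRCC3, which form complexes with one another in the pairing step, XRCC2 alone was called at 24 h against sham. It read 5.48, 5.43, 5.71 and 5.26 in sham and, at 24 h, 5.25, 5.19 and 5.13 after 5 cGy, 5.27, 5.04 and 4.90 after 2 Gy, and 4.73, 4.66 and 4.77 after 5 cGy + 2 Gy. Only the last group lay clear of sham and of both single doses. XRCC2 fell by 0.75 ± 0.13 after 5 cGy + 2 Gy (adjusted p = 0.000113), and after 2 Gy its change was -0.40 ± 0.13 (adjusted p = 0.0529), or -0.50 ± 0.14 without replicate 1 of that group (adjusted p = 0.0358). The difference between these treatments at 24 h was -0.35 with an unadjusted p of 0.0135 and did not pass after adjustment (adjusted p = 1). Its other probe set had a change of -0.11 after 5 cGy + 2 Gy.

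XRCC3, the partner of RAD51C, read 5.60, 5.77, 5.99 and 5.56 in sham, 6.11, 6.15 and 5.94 at 3 h after 2 Gy and 5.79, 5.68 and 5.64 at 24 h. At 3 h 2 of the 3 arrays lay above all of sham, and at 24 h all 3 lay within it. XRCC3 fell by 0.36 ± 0.11 between these times (adjusted p = 0.0277), a call lost without replicate 1 or 2 at 3 h (adjusted p = 0.0658 and 0.0991) or replicate 2 or 3 at 24 h (adjusted p = 0.0812 and 0.108), and its change at 3 h against sham was 0.34 ± 0.10 (adjusted p = 0.18). RAD51B, RAD51C and RAD51D were called in none of the comparisons, with group means from 5.19 to 5.45, 7.52 to 8.04 and 6.62 to 6.88.

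The accessory genes of the pairing step, RAD51AP1, RAD54L and RAD54B, held the member with the largest change. RAD51AP1, which promotes pairing with the intact copy, read 6.33, 6.57, 5.94 and 5.81 in sham. At 24 h it read 5.32, 5.55 and 5.20 after 5 cGy, 5.14, 4.63 and 4.93 after 2 Gy and 4.50, 4.82 and 4.69 after 5 cGy + 2 Gy. Each 24 h group lay below sham, and the groups given 2 Gy lay below that given 5 cGy. RAD51AP1 fell by 1.5 ± 0.23 after 5 cGy + 2 Gy (2.82-fold lower, adjusted p = 4.57e-05), and its change after 5 cGy was -0.81 ± 0.23 (adjusted p = 0.0511). At 6 h after 2 Gy replicate 2 read 7.06 against 5.7 and 6.04, the highest value of this gene on any array.

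RAD54L, a motor that remodels DNA during pairing, read 6.39, 6.24, 6.56 and 6.76 in sham, 5.86, 5.57 and 6.15 at 24 h after 2 Gy and 5.74, 6.2 and 5.63 after 5 cGy + 2 Gy, while the 5 cGy arrays read 6.33, 6.33 and 6.28. The groups given 2 Gy lay below sham and the 5 cGy group within it. RAD54L fell by 0.63 ± 0.16 after 2 Gy (adjusted p = 0.0121) and by 0.63 ± 0.16 after 5 cGy + 2 Gy (adjusted p = 0.0073). RAD54B, a related motor, read 5.91, 5.32, 4.95 and 4.90 in sham and 5.11, 4.51 and 4.24 at 24 h after 5 cGy, and these groups overlapped. RAD54B fell by 0.65 ± 0.18 (adjusted p = 0.0429), a call lost without sham replicate 1 (-0.43 ± 0.17, adjusted p = 0.136), without sham replicate 2 (adjusted p = 0.125) or without replicate 2 or 3 of 5 cGy at 24 h (adjusted p = 0.163 and 0.359), and another probe set of this gene had a change of 0.33.

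In the Fanconi core group UBE2T fell, FANCF rose, and the other 6 measured subunits were not called at 24 h against sham. UBE2T read 9.63, 9.79, 9.89 and 9.92 in sham, 9.49, 9.47 and 9.25 at 24 h after 5 cGy, 8.79, 8.74 and 8.86 after 2 Gy and 8.79, 8.78 and 8.57 after 5 cGy + 2 Gy. The 5 cGy arrays lay just below sham, and the other 6 arrays lay lower still with little spread. UBE2T fell by 1.01 ± 0.12 after 2 Gy (2.02-fold lower, adjusted p = 7.95e-07) and by 1.09 ± 0.12 after 5 cGy + 2 Gy (adjusted p = 1.04e-07). Its change after 5 cGy was -0.41 ± 0.12 (adjusted p = 0.0541) and, without sham replicate 1, -0.47 ± 0.13 (adjusted p = 0.0278). At 12 h it had fallen by 0.54 ± 0.12 after 5 cGy + 2 Gy (adjusted p = 0.0141).

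With all arrays in the fit FANCF, an adaptor of the core complex, was the 1 member that rose at 24 h after each treatment. Without sham replicate 1 PALB2 was called higher after each treatment too. FANCF read 7.54, 7.11, 7.31 and 7.51 in sham and, at 24 h, 7.99, 7.74 and 7.85 after 5 cGy, 7.74, 7.92 and 7.94 after 2 Gy, and 7.89, 7.85 and 7.73 after 5 cGy + 2 Gy. All 9 of these arrays lay above sham, and the 3 treatments overlapped. FANCF rose by 0.49 ± 0.11 (adjusted p = 0.00725), 0.50 ± 0.11 (adjusted p = 0.0038) and 0.46 ± 0.11 (adjusted p = 0.00476). After 2 Gy the other probe sets of FANCF had changes of 0.04 and 0.61.

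FANCC, another core subunit, read 6.25, 6.37 and 6.47 at 3 h and 5.84, 5.87 and 5.93 at 24 h after 2 Gy, with sham at 5.99, 6.41, 6.16 and 6.29. The 24 h arrays lay below sham and below those at 3 h. FANCC fell by 0.49 ± 0.13 between these times (adjusted p = 0.0128; 0.0652 without replicate 3 at 3 h), and its change against sham at 24 h was -0.34 ± 0.12 (adjusted p = 0.0944), or -0.41 ± 0.12 without sham replicate 1 (adjusted p = 0.0289). FANCL, the core's ubiquitin ligase, was lowest at 6 h, with group means from 6.83 at 6 h after 2 Gy to 7.54 elsewhere. It fell by 0.54 ± 0.12 at 6 h after 2 Gy (adjusted p = 0.0457), with changes at 6 h of -0.39 ± 0.12 after 5 cGy (adjusted p = 0.454) and -0.37 ± 0.12 after 5 cGy + 2 Gy (adjusted p = 0.251). FANCB, FANCE, FANCG and FANCM, the last of which is the dim DNA translocase that anchors the complex, were called in no comparison. Without sham replicate 1 FANCG was called at 24 h after 5 cGy + 2 Gy (-0.62 ± 0.19, adjusted p = 0.0258). The group means of these 4 genes ran from 3.93 to 4.24, 6.69 to 7.68, 6.59 to 7.22 and 3.46 to 3.74.

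FANCI, the measured one of the pair that receives ubiquitin, read 6.90, 7.09, 6.87 and 6.98 in sham, 6.37, 6.33 and 6.35 at 24 h after 2 Gy and 6.07, 6.30 and 6.08 after 5 cGy + 2 Gy. These 3 groups did not overlap, whereas the 5 cGy arrays at 24 h read 6.40, 7.26 and 6.88 and spanned sham. FANCI fell by 0.61 ± 0.15 after 2 Gy (adjusted p = 0.0106) and by 0.81 ± 0.15 after 5 cGy + 2 Gy (adjusted p = 0.00036).

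Of the late genes, RFWD3, a ubiquitin ligase that acts on RPA at damaged forks, fell after each treatment at 24 h. It read 6.67, 7.30, 7.33 and 7.19 in sham and, at 24 h, 6.42, 6.36 and 6.35 after 5 cGy, 6.31, 6.04 and 6.25 after 2 Gy, and 6.24, 5.95 and 6.04 after 5 cGy + 2 Gy. All 9 arrays lay below sham, including its low replicate 1. RFWD3 fell by 0.75 ± 0.14 (adjusted p = 0.0024), 0.92 ± 0.14 (adjusted p = 7.16e-05) and 1.04 ± 0.14 (adjusted p = 5.69e-06). It was also the member called earliest after 5 cGy + 2 Gy, where it read 6.21, 6.43 and 6.55 at 6 h (-0.73 ± 0.14, adjusted p = 0.0102). Other probe sets of RFWD3 had smaller changes at 24 h, of -0.34 and -0.36 after 2 Gy, -0.27 and -0.40 after 5 cGy + 2 Gy, and -0.14 and 0.02 after 5 cGy.

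EME1, the partner of the nuclease MUS81, read 7.64, 7.45, 7.81 and 7.45 in sham, 7.36, 7.36 and 7.31 at 24 h after 2 Gy and 7.27, 7.12 and 7.20 after 5 cGy + 2 Gy. Both irradiated groups lay below sham by a narrow margin. EME1 fell by 0.39 ± 0.10 after 5 cGy + 2 Gy (adjusted p = 0.0104), a call lost without sham replicate 3 (adjusted p = 0.0513) or replicate 2 of that group (adjusted p = 0.063). SLX4, the scaffold of the nucleases, had group means from 7.90 to 8.36 and was called in no comparison.

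Within each treatment, 24 h was also set against 3 h, a comparison that uses no sham array. In this comparison too, time after the dose and time in culture cannot be told apart. After 2 Gy it uses the 3 h arrays, 2 of which had GAPDH differences above all sham arrays (0.63 and 0.68). All of these 3 h arrays had ACTB differences above all sham arrays (2.84 to 3.21). The part of these arrays in the calls was not tested. After 2 Gy 8 members fell and 3 rose (all genes: 5.41 percent down, 6.21 percent up), with a median of -0.22 against -0.06 over all genes. After 5 cGy + 2 Gy 6 fell and 1 rose (all genes: 2.01 percent down, 2.98 percent up), and after 5 cGy 3 fell and 1 rose (all genes: 1.26 percent down, 1.85 percent up). EXO1 and RFWD3 fell and FANCF rose within all 3 treatments. EXO1 fell by 0.82 ± 0.15, 0.96 ± 0.15 and 0.99 ± 0.15 after 5 cGy, after 2 Gy and after the combined doses. The 24 h fall of EXO1, RFWD3 and the rise of FANCF were thus also measured without sham replicate 1, though on the same 24 h arrays. The 2 Gy count was 9 down and 2 up without replicate 1 of 2 Gy at 24 h (all genes: 4.3 percent down, 4.14 percent up). The count after 5 cGy was 2 without replicate 2 of 5 cGy at 3 h.

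Set directly against 5 cGy, 2 Gy gave 1 member lower at 24 h, UBE2T (all genes 0.159 percent down), and 0 members at 3, 6 and 12 h (all genes 0.0274, 0.0274 and 0.011 percent in either direction), where limma gave 1, 3 and 5 members at an unadjusted p under 0.05. The 2 Gy arrays of UBE2T at 24 h (8.74 to 8.86) lay below those of 5 cGy (9.25 to 9.49). The difference was -0.61 ± 0.13 (1.52-fold lower, adjusted p = 0.0308). The call was lost when any array of the 6 except replicate 3 of 5 cGy was left out, with a count of 0 in each case. FANCI differed by -0.49 ± 0.16 (adjusted p = 0.574), RAD54L by -0.45 ± 0.17 and EXO1 by -0.39 ± 0.15 (adjusted p = 0.836), none of which passed.

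The question of the series was whether a priming dose alters the response to the challenge dose. Set against 2 Gy at the same time, limma called 0 members after 5 cGy + 2 Gy at each of the 4 times and 0 in their average, as it did for 0 percent of all genes in each of these 5 comparisons. At an unadjusted p under 0.05 there were 4, 4, 2 and 2 members at 3, 6, 12 and 24 h and 7 in the average. Averaged over the times, 26 of the 33 members were lower after 5 cGy + 2 Gy, with a median of -0.07 against -0.009 over all genes and a range of -0.26 to 0.16. The shares of all genes at an unadjusted p under 0.05 and below 0 were not counted. No effect of priming on the members is therefore read from these counts. The members farthest below 0 were RFWD3 (-0.26 ± 0.08, adjusted p = 0.815), EXO1 (-0.23 ± 0.07, adjusted p = 0.83) and BRCA1 (-0.21 ± 0.07, adjusted p = 0.942). RFWD3 at 3 h read 6.55, 6.52 and 6.76 with priming and 6.93, 7.17 and 7.18 without. These arrays did not overlap, and the difference of -0.48 ± 0.15 did not pass (adjusted p = 0.701). Cells at 12 h after 5 cGy + 2 Gy and at 24 h after 5 cGy had the same time since the first dose, and limma called 0 members (all genes 0 percent, 3 members at an unadjusted p under 0.05) between them.

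**Figure D4:**
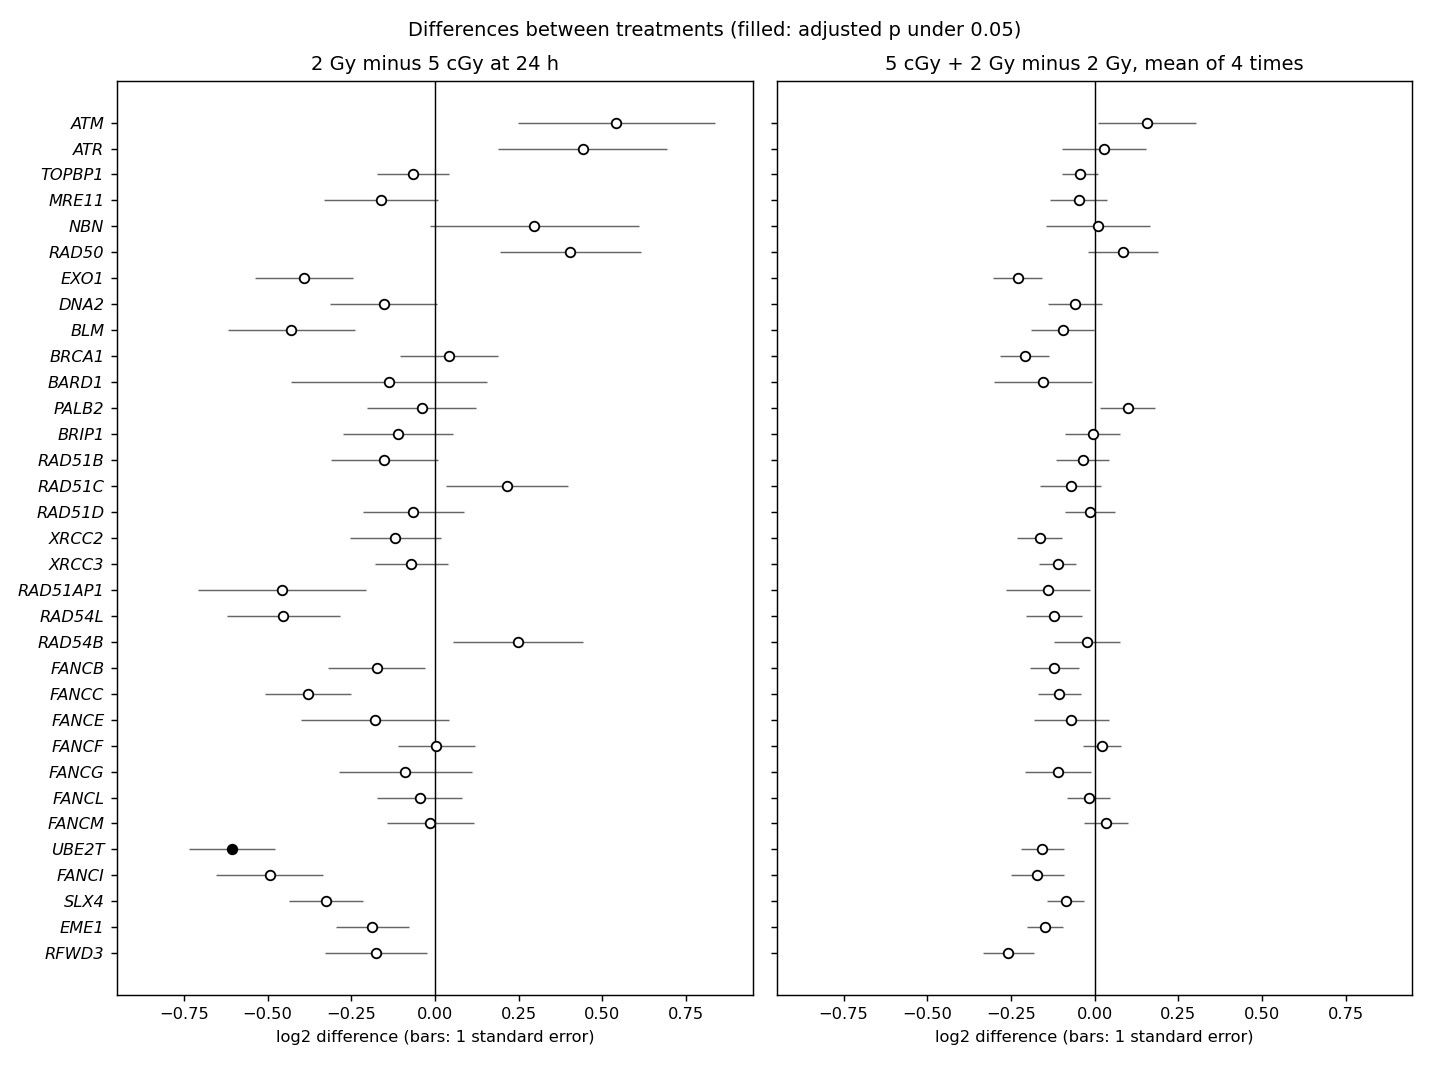
Difference of each of the 33 members between treatments (log2, horizontal axes) with bars of 1 SE, for 2 Gy minus 5 cGy at 24 h (left) and for 5 cGy + 2 Gy minus 2 Gy averaged over 4 times (right). Filled points passed an adjusted p of 0.05, which was UBE2T at left (-0.61) and 0 members at right, where values ran from -0.26 to 0.16.

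Genes of DNA replication moved beside these members. Of 30 such genes 28 fell at 24 h after 2 Gy (median -1.13), 28 after 5 cGy + 2 Gy (median -1.22) and 17 after 5 cGy (median -0.54). Of 24 mitosis genes 14, 21 and 0 fell, with medians of -1.11, -1.66 and -0.01. The mean level of the replication genes was 8.28 to 8.69 on the sham arrays and 7.10 to 7.43 at 24 h after 2 Gy. Over the 40 arrays the members' levels correlated with that mean at r = 0.96 for UBE2T, 0.92 for EXO1, 0.84 for XRCC2, 0.82 for RAD51AP1 and 0.82 for RFWD3, and 10 of the 33 members had an r over 0.7. The arrays share treatment, time and normalization, so these are descriptions. For 9 members r was below 0, with RAD50 at -0.68, FANCF at -0.65 and ATR at -0.53. The part of a lower share of replicating cells in the members' falls was not tested.

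Members did not move as 1 block. Over the 528 pairs of members the median r on the 40 arrays was 0.1. The highest was 0.88 for EXO1 with UBE2T, followed by 0.86 for RAD54L with UBE2T. After removing the group means, which leaves only the differences between replicates, ATM with NBN came first at 0.90 and RAD50 with RAD51C next at 0.85. Replicate 1 was highest on the first component of these differences, taken over all genes, in 11 of the 13 groups. The differences correlated with that component at 0.72 for ATM, 0.86 for NBN, 0.87 for RAD50 and 0.80 for RAD51C. What lies behind these pairs was not tested.

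Other gene lists are given beside the members. Of 41 further genes of homologous recombination and the Fanconi pathway, 0 were called at 24 h after 5 cGy (9 at an unadjusted p under 0.05 in limma), 3 fell and 1 rose after 2 Gy, and 8 fell and 1 rose after 5 cGy + 2 Gy, with medians of 0.02, 0.00 and 0.01. Of 13 genes of end joining and 53BP1, 1 rose after 5 cGy, 1 rose after 2 Gy, and 1 fell and 2 rose after 5 cGy + 2 Gy. Of 14 checkpoint genes 0, 2 and 2 fell. Of 22 p53 targets 2, 14 and 12 rose, with medians of 0.19, 0.73 and 0.66. Whether these lists differ from the members was not tested. Of the cell type markers, 2, 1 and 1 of 10 fibroblast genes rose at 24 h after the 3 treatments, 1 of 5 leukocyte genes rose after 5 cGy, 1 of 5 endothelial genes fell after 5 cGy + 2 Gy, and no keratinocyte (5), melanocyte (4) or smooth muscle (5) gene was called.

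In all 19 of the 33 members were called in at least 1 of the 25 comparisons and 14 in none, where 18.2 percent of all genes were called in at least 1. Since the members were chosen with earlier results of these data known, this describes them and is not a test. Of the other probe sets of the members called at 24 h after 2 Gy, 13 of 14 had the same sign, and 8 of those 13 reached p under 0.05 before adjustment. After 5 cGy + 2 Gy this held for 14 of 15 (9 at that p), and after 5 cGy for 7 of 9 (3 at that p). After 5 cGy a probe set of RAD54B and another of RFWD3 went the opposite way, 1 of them at that p.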

How the data were processed

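RNA from 40 cultures of AG01522 cells was hybridized to 40 Affymetrix PrimeView arrays, and the authors deposited log2 intensities per probe set, which RMA had background-corrected, quantile-normalized and summarized over probes (RMA is also the tool in the submitters' processing notes, where no version is given). A customized probe set definition is named in the study's methods, whereas the deposited table holds the maker's probe sets. Of 49495 probe sets, 45284 were annotated to exactly 1 gene. Array medians lay between 5.62 and 5.7, and precision is limited by how many arrays there were.

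All 40 arrays entered 1 model with a mean for each of 13 groups (limma 3.58.1 in R 4.3.3; 27 residual degrees of freedom). P-values were adjusted by Benjamini-Hochberg over 18244 genes within each of 25 comparisons, and tests were two-sided. The fit was tested on simulated data. Arrays of a group are biological replicates by their labels, and nothing used here ties an array to an experiment day, so p-values measure the spread between these arrays. The members and gene lists were chosen with earlier results of these data known.

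Every member was named. Values of every array were given for called members, at most 3 per role, by the smallest adjusted p. Promoters were printed for the 4 largest falls at 24 h after 2 Gy and for the smallest change. Alternatives were cyclic loess, the mean or the most variable probe set of a gene, only the arrays compared, a replicate block, array weights, filters on variable or dim genes, the study's own threshold (over 1.2-fold with an unadjusted p under 0.05), and each array left out. Counts per list that leave out the outlying arrays (replicate 1 of sham, replicate 1 of 2 Gy at 24 h) were chosen after seeing the data. Markers of fibroblasts, keratinocytes, melanocytes, endothelial cells, leukocytes and smooth muscle were checked by the percentile of their mean.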

Additional observations from a re-analysis of the deposited data

Results flagged for a closer look

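PALB2 in sham replicate 1 stood apart from the other sham arrays, at 7.49 against 6.78 to 6.88, with a gap to the nearest array of 0.859 of the group's range, above Dixon's critical value for 4 arrays. All 33 members were tested in this way and 1 passed, where chance gives about 1 in 20 groups. UBE2T differed between 2 Gy and 5 cGy at 24 h by -0.61 on the log2 scale (limma's adjusted p = 0.0308), with every 2 Gy array below every 5 cGy array.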

How the results depend on the processing

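Counts are members called in either direction. From here to the end of the report they stand without the share of all genes called under the same setting. A higher or lower count is therefore not read as a result about the members. The filter on dim genes moved none of the 25 counts by over 1.5 times. With array weights the counts were 1 for 5 cGy at 6 h, 5, 4 and 19 for 2 Gy at 6, 12 and 24 h, 1, 7 and 9 for 5 cGy + 2 Gy at 3, 6 and 12 h, and 7, 19 and 17 for 24 h against 3 h after 5 cGy, after 2 Gy and after the combined doses. With only the arrays compared they were 1 for 5 cGy at 24 h, 0, 0 and 4 for 2 Gy at 6, 12 and 24 h, 0, 0 and 8 for 5 cGy + 2 Gy at 6, 12 and 24 h, and 11 for 24 h against 3 h after 5 cGy + 2 Gy; the fits use fewer arrays. With cyclic loess 2 Gy at 12 h gave 2. With the mean of probe sets the counts were 1 for 5 cGy at 12 h, 0 and 2 for 2 Gy at 6 and 12 h, and 0 for 5 cGy + 2 Gy at 6 h. With the most variable probe set they were 1 for 5 cGy at 12 h and 0 for 2 Gy at 6 h, and without the 20% least variable genes 0 for 2 Gy at 6 h. With the threshold of the study's methods, without adjustment, they were 2, 5, 2 and 11 for 5 cGy at 3, 6, 12 and 24 h, 4, 4, 7 and 17 for 2 Gy, 3, 7 and 11 for 5 cGy + 2 Gy at 3, 6 and 12 h, 3, 3, 2 and 2 for 5 cGy + 2 Gy against 2 Gy at the 4 times, 1, 3, 4 and 7 for 2 Gy against 5 cGy, 10, 20 and 17 for 24 h against 3 h, and 3 for 5 cGy + 2 Gy at 12 h against 5 cGy at 24 h. RAD54B after 5 cGy at 24 h turned to 0.33 with its most variable probe set and was not called with the mean of probe sets (-0.16), cyclic loess, array weights or only the arrays compared. The cause was not tested in any of these.

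Leaving out 1 array gave 2 to 7 called members for 5 cGy at 24 h, 0 to 2 for 2 Gy at 6 h, 0 to 2 at 12 h and 7 to 13 at 24 h, 0 to 1, 0 to 3, 1 to 6 and 12 to 17 for 5 cGy + 2 Gy at 3, 6, 12 and 24 h, 0 to 1 for 2 Gy against 5 cGy at 24 h, and 2 to 4, 8 to 13 and 5 to 8 for 24 h against 3 h after 5 cGy, after 2 Gy and after the combined doses. In the other comparisons it was 0 each time.

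The replicate numbers were not taken to pair the arrays. Deviations from the group means correlated at a mean of 0.263 between arrays of the same number and -0.12 otherwise, 186 of 234 pairs of the same number were over 0.1, and the lowest was -0.223, while 38 of the 40 arrays correlated best with their own number, a hint from the data. With the replicate block the counts were 1 for 5 cGy at 12 h, 2 and 4 for 2 Gy at 6 and 12 h, 1 and 7 for 5 cGy + 2 Gy at 3 and 12 h, and 18 and 14 for 24 h against 3 h after 2 Gy and 5 cGy + 2 Gy, and the other 18 counts stayed within 1.5 times.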
